A study of Mus musculus with 8 samples.

Results

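The P2 receptors are the cell surface receptors for extracellular ATP, ADP, UTP, UDP and UDP-sugars. The genes described here are P2rx1, P2rx2, P2rx3, P2rx4, P2rx5, P2rx7, P2ry1, P2ry2, P2ry6 and P2ry14, and all 10 were found among the 55414 gene identifiers of the count tables. P2rx3 was chosen from its measured rise in the comparison reported here, so its values are given as a description with no test. The other 9 were chosen by gene family, with results of these data already known. They leave out 6 mouse genes with P2 receptor symbols (P2rx6, P2ry4, P2ry10, P2ry10b, P2ry12 and P2ry13), whose values are given as well. P2ry10 and P2ry10b are counted among the P2 receptor genes by symbol only and are not established nucleotide receptors.

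RNA of pancreatic islets, the hormone-secreting cell clusters of the pancreas, was sequenced from C57BL/6 mice 5 weeks old. The 4 libraries called TG are labelled Ins2 cre(+/-) with ATF4 TG(+/-), and the 4 called WT are labelled Ins2 cre(-/-) with ATF4 TG(+/-), so the ATF4 transgene is on both labels and the Cre driver on that of TG alone. The series describes the transgene as specific to beta cells, the insulin-secreting cells, through a Cre named after the insulin 2 gene. Whether the libraries of a group came from separate animals is not stated, so p-values cover no more than the spread among these 8 libraries, which can be technical. ATF4 is the transcription factor at the centre of the integrated stress response, and the comparison asks which transcripts differ where the Cre driver is present.

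P2X receptors are ion channels built of 3 subunits that open when ATP binds and let sodium and calcium in. P2Y receptors are G protein-coupled, and P2RY1, P2RY2 and P2RY6 act mainly through Gq, phospholipase C and the release of stored calcium. Beta cells secrete ATP together with insulin and zinc, so islet cells can act on themselves and their neighbours through both classes. Macrophages, vessels, nerve endings and exocrine cells near islets carry P2 receptors too.

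Counts assigned to genes ranged from 16521087 to 22499999 a library. Levels are CPM, counts scaled to a common library size with TMM, and means are given ± SD over the 4 libraries of a group. A count of 0 allows up to 3 counts, which equal between 0.132 and 0.183 CPM. Atf4 itself, the gene the transgene is named after, was lower in the libraries labelled TG, at 234 to 278 CPM against 326 to 378 CPM (log2 fold change −0.43, SE 0.085, edgeR adjusted p = 0.00226), and whether the transgene's transcript is counted under Atf4 cannot be told from the counts. TG and WT therefore stand for the labels throughout. The islet hormones were abundant in every library, with Ins2 between 30654 and 82409 CPM and Gcg between 17620 and 45089 CPM. All 8 beta-cell markers were lower in TG. Markers of other cells moved with the groups: 9 of 12 macrophage, 8 of 8 endothelial, 6 of 10 stellate, fibroblast and mural, and 4 of 6 ductal markers were called higher in TG. Across all 20509 genes tested, 12.1% were called higher and 8.06% lower. The summed levels of these 4 marker lists did not overlap between the groups, for example 191 to 492 CPM against 108 to 176 CPM for macrophage markers and 1091 to 1159 CPM against 472 to 814 CPM for endothelial markers. TG replicates 2 and 3 stood apart in the macrophage gene Lyz2, at 274 and 189 CPM against 9.95 to 56.6 CPM in the other 6 libraries. Acinar markers ran from 1158 CPM in WT replicate 4 to 38137 CPM in TG replicate 1, with 0 of 8 called by edgeR, DESeq2 or limma-voom and 0 at an unadjusted p under 0.05. In bulk RNA, fewer cells of a type and less RNA per cell cannot be told apart.

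Among the 8 members tested other than P2rx3, P2rx1 and P2ry14 rose and P2ry1 and P2ry6 fell in TG, and P2rx2, P2rx4, P2rx7 and P2ry2 did not pass the test. P2rx5 was too low to be tested. The groups did not overlap for 6 of the 8, 4 higher and 2 lower, against 22.6% of all genes tested, 12.6% higher and 9.94% lower. The test was edgeR's quasi-likelihood test over all genes, with a call at a Benjamini-Hochberg adjusted p under 0.05. Of all 20509 genes tested, 20.1% were called, 12.1% higher and 8.06% lower, so calls were common across the genome. The median log2 fold change of the 8 was 0.84, against −0.0019 over all genes tested. Because the members were chosen with these results in view, the counts support nothing beyond the values themselves.

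**Figure D1:**
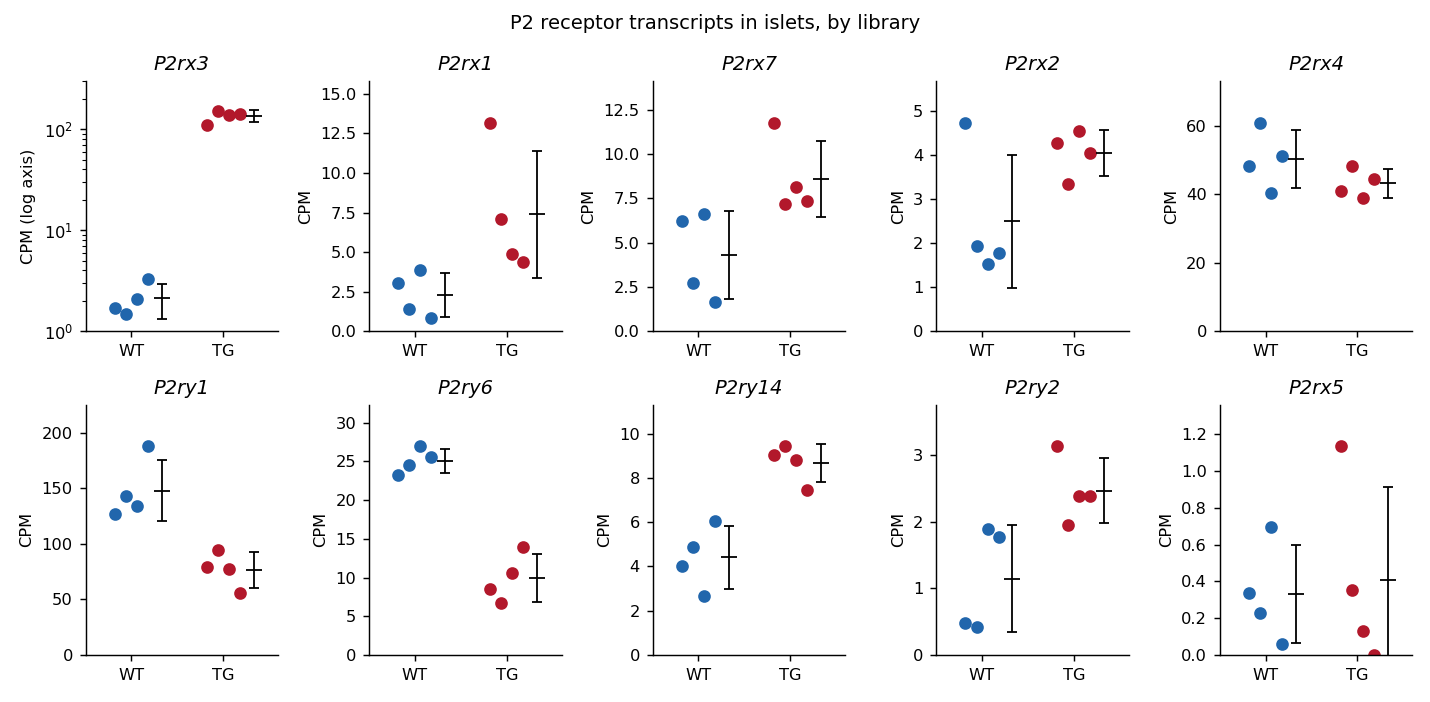
Level (CPM, y axis) of each of the 10 P2 receptor genes in the 4 WT (blue) and 4 TG (red) libraries, with P2rx3 on a log axis and the others on linear axes from 0. Black bars show the mean and 1 SD and are cut at 0. P2rx3 lies between 1.47 and 3.30 CPM in WT and between 111 and 153 CPM in TG, while P2ry1 and P2ry6 are lower in every TG library than in any WT library.

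P2rx3 (ENSMUSG00000027071) encodes the P2X3 subunit, an ATP-gated channel known from pain- and reflex-sensing neurons, where it forms channels alone or with P2X2. In WT replicates 1 to 4 it measured 1.69, 1.47, 2.08 and 3.30 CPM, from 35, 32, 45 and 54 counts. In TG replicates 1 to 4 it measured 111, 153, 140 and 142 CPM, from 2061, 3441, 3166 and 2496 counts. Every TG library thus stood far above every WT library, and the lowest TG value was that of replicate 1, the library richest in acinar transcripts. The means were 137 ± 17.8 CPM (SD, n = 4) in TG and 2.14 ± 0.815 CPM (SD, n = 4) in WT, 63.9-fold apart, and the fitted log2 fold change was 6.02 (SE 0.20). Only 7 of the 20509 genes tested had a larger fitted value.

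As a further description of a gene chosen for this rise, which supports nothing, the fitted value ranged from 5.87 to 6.28 with single libraries left out. With the mean log2 CPM of the macrophage markers as a covariate it was 5.98, and with that of the endothelial and stromal markers (endothelial with stellate, fibroblast and mural) 6.38. It was 5.87 without the 2 TG libraries high in Lyz2. The summed level of markers of sensory neurons, the cells best known for P2rx3, overlapped between the groups, at 193 to 239 CPM in TG and 151 to 243 CPM in WT. Of 8 tested, 1, the actin-binding protein gene Avil, was called higher (log2 fold change 0.90, SE 0.28), against 12.1% of all genes tested. The most abundant were the sodium channel gene Scn9a, at 96.9 to 111 CPM in TG and 93.9 to 141 CPM in WT, and the neuronal filament gene Prph, at 80.8 ± 13.4 CPM in TG and 46.1 ± 21.7 CPM in WT (0.81, SE 0.31, adjusted p = 0.121). Scn9a averaged 103 CPM of the mean sum of 214 CPM in TG and 119 CPM of 184 CPM in WT. The overlap of the sums therefore does not show that nerve transcripts were alike. Prph overlapped only through WT replicate 1, at 78.2 CPM against 32.1 to 40.4 CPM in the other WT libraries and 62.7 to 93.5 CPM in TG. Scn10a, Scn11a, Trpv1 and Calca stayed at or below 3.79 CPM in every library, and Isl2 and Pou4f1 had 0 counts in some libraries of both groups. Markers of Schwann cells, the glia of nerves, did not overlap, at 55.7 to 71.9 CPM in TG and 35.9 to 53.0 CPM in WT. Among these markers 1 of 6, S100b, was called higher (1.22, SE 0.29, edgeR adjusted p = 0.00978), again against 12.1% of all genes tested. The part of nerve cells in the P2rx3 level was not tested.

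P2rx3 shares 51 exonic bases with Ssrp1, a histone chaperone gene on the opposite strand. Ssrp1 measured 234 ± 21.8 CPM in TG and 207 ± 12.7 CPM in WT (n = 4 each; fitted log2 change 0.18, SE 0.088, edgeR adjusted p = 0.181). Whether reads were counted by strand is not stated, so reads from the shared bases cannot be assigned to either gene. Of its flanking genes, the eosinophil granule gene Prg3 averaged 0.417 CPM in TG and 0.194 CPM in WT and was not tested. The other, Tnks1bp1, rose from 88.7 ± 10.9 CPM to 177 ± 18.6 CPM (adjusted p = 9.45e-06).

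The 5 genes whose log2 CPM profiles over the 8 libraries lay closest to that of P2rx3, out of 11318 named genes averaging 5 CPM or more, were Bcat1, Slc7a11, Fut1, Trib3 and G0s2. Closeness was the root-mean-square difference of log2(CPM + 0.5) values, each centred on the gene's own mean, which was 0.23 for Bcat1 and 0.46 for G0s2. Bcat1, a transaminase of branched-chain amino acids, measured 64.8 ± 9.83 CPM in TG against 0.959 ± 0.246 CPM in WT (n = 4 each). Slc7a11, the cystine-glutamate exchanger, measured 160 ± 14 CPM against 2.52 ± 0.771 CPM. Their fitted log2 fold changes ran from 5.21 for G0s2 to 7.12 for Fut1, a likeness to P2rx3 that follows from how they were picked.

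P2rx3 made up most of the P2X transcripts in TG. Levels of different genes were compared as CPM per kilobase of annotated exon. Summed over the 7 P2X genes, this level was 61.8 ± 4.92 in TG and 11 ± 0.896 in WT (n = 4 each), and without P2rx3 it was 12.9 ± 2.04 and 10.2 ± 1.13. P2rx3 made up 79.0% ± 4.86 of the P2X sum in TG and 7.15% ± 3.19 in WT (n = 4 each). P2rx4 made up 9.95% ± 0.657 in TG and 65.2% ± 10.1 in WT. These shares follow from the rise of P2rx3 and are no separate finding.

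**Figure D2:**
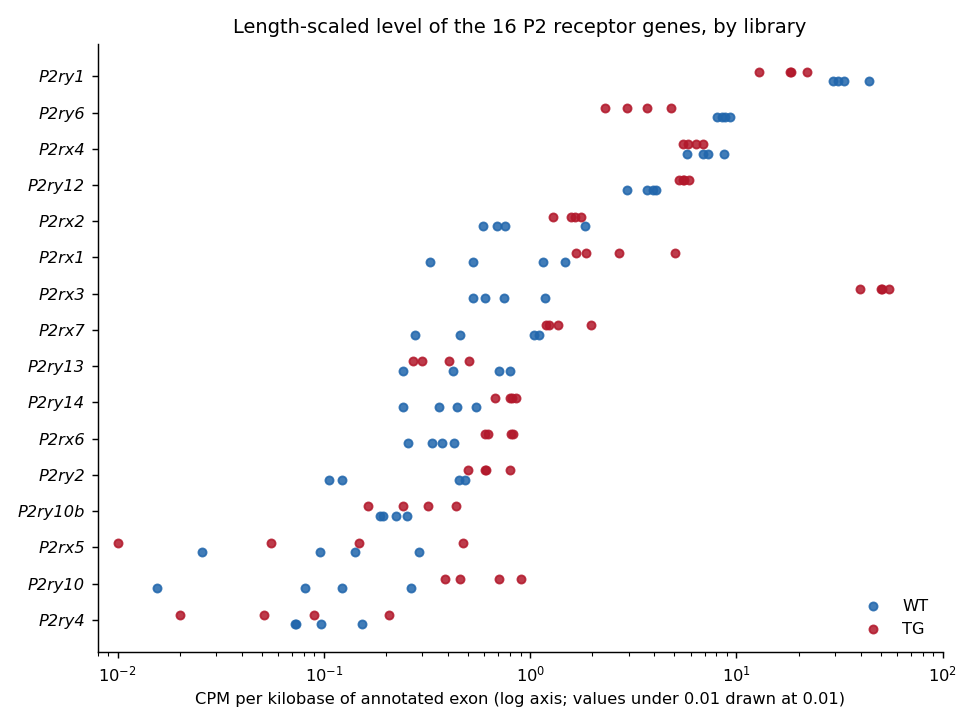
Level per kilobase of annotated exon (x axis, CPM per kilobase, log scale) of the 16 P2 receptor genes, ordered by their WT mean, 1 point per library. P2ry1 leads in WT at 29.4 to 43.7, and P2rx3 is highest in TG at 39.9 to 54.8, where P2ry1 lies at 12.9 to 22.

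The order of the receptors therefore differed between the groups. In WT the highest means per kilobase were those of P2ry1 (34.4), P2ry6 (8.68), P2rx4 (7.14) and P2ry12 (3.66), and every other gene was below 1. P2ry6 and P2rx4 overlapped in WT (8.03 to 9.33 against 5.75 to 8.66), and they changed places when the length of the principal transcript was used instead (12.9 against 18.6). On that length P2ry14 ranked 5 of 16 in WT at 2.45, against 10 of 16 at 0.398 per kilobase of all annotated exons, and P2rx2 (1.19) and P2rx3 (1.18) also exceeded 1. P2rx3 was the seventh of 16 in WT, at 0.766, and its range overlapped those of P2rx2 (0.968), P2rx1 (0.873) and P2rx7 (0.721). In TG the order was P2rx3 (49.0), P2ry1 (17.9), P2rx4 (6.15) and P2ry12 (5.56), of which P2rx4 and P2ry12 overlapped. With the principal transcript length the same 4 genes led in TG in the same order.

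P2rx2 encodes the subunit that can join P2X3 in mixed channels. It measured 4.27, 3.33, 4.55 and 4.04 CPM in TG replicates 1 to 4 and 4.73, 1.93, 1.53 and 1.77 CPM in WT replicates 1 to 4. WT replicate 1 lay with the TG libraries, so the groups overlapped. The log2 fold change of 0.69 (SE 0.34) did not pass the test (edgeR adjusted p = 0.171), but it was 1.21 with adjusted p = 0.00938 without WT replicate 1. Per kilobase, P2rx2 stood at 1.57 in TG beside the 49.0 of P2rx3.

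P2rx4 (ENSMUSG00000029470) encodes a calcium-permeable P2X channel found in many tissues, and was the main P2X transcript of WT islets. Its levels were 41.0, 48.3, 38.8 and 44.6 CPM in TG replicates 1 to 4 and 48.2, 60.8, 40.4 and 51.1 CPM in WT replicates 1 to 4. The groups overlapped, and the log2 fold change of −0.22 (SE 0.12) was not called (adjusted p = 0.244). P2rx7, its neighbour in the genome, encodes the channel that opens a large pore at high ATP and triggers inflammasomes in macrophages. P2rx7 measured 11.8, 7.16, 8.17 and 7.35 CPM in TG and 6.23, 2.72, 6.62 and 1.65 CPM in WT replicates 1 to 4. The groups did not overlap, as for 12.6% of all tested genes in this direction, but the log2 fold change of 0.99 (SE 0.38) missed the threshold (adjusted p = 0.0931).

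P2rx7 passed the test with DESeq2 (adjusted p = 0.0228) and limma-voom (adjusted p = 0.037), with no filter on low counts (adjusted p = 0.000373) and without WT replicate 3 (adjusted p = 0.0324). With the macrophage covariate its log2 fold change was −0.12 and with the endothelial and stromal covariate −0.63. Within WT its 2 highest libraries, replicates 3 and 1, were also the 2 highest in macrophage (176 and 153 CPM), acinar (11305 and 11351 CPM) and endothelial (814 and 541 CPM) markers. Its highest and lowest libraries over both groups, TG replicate 1 and WT replicate 4, were the acinar extremes, and its log2 fold change was 0.63 with the acinar covariate and 0.53 without those 2 libraries. In TG the highest P2rx7 level was in replicate 1, which was not the highest in the summed macrophage markers. That was replicate 2, where Lyz2 alone held 274 of 492 CPM. Cd14, Mrc1, Fcgr1 and Aif1 were highest of TG in replicate 1, the other macrophage markers in replicate 2 or 3. Replicate 1 was also highest in the stellate, fibroblast and mural sum (6847 CPM) and the lymphocyte sum (7.83 CPM). The part of other cell types in the P2rx7 difference was not tested.

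P2rx1 (ENSMUSG00000020787) encodes a fast-desensitizing channel of platelets and smooth muscle that is also carried by blood cells. It measured 13.2, 7.07, 4.90 and 4.39 CPM in TG replicates 1 to 4 and 3.04, 1.38, 3.89 and 0.855 CPM in WT replicates 1 to 4. The groups did not overlap, and the gene rose by 1.67 (SE 0.49) on the log2 scale (edgeR adjusted p = 0.0375). The call was lost with 5 of the 8 libraries left out singly: TG replicate 1 (1.25), TG replicate 2 (1.69), WT replicate 1 (1.82), WT replicate 2 (1.47) and WT replicate 4 (1.40). The adjusted p without 1 library lay between 0.0133 and 0.103.

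P2rx1 was highest in TG replicate 1 and lowest in WT replicate 4, the libraries with the most (38137 CPM) and the fewest (1158 CPM) acinar transcripts. With the acinar level as a covariate its log2 fold change was 1.06 (adjusted p = 0.0119), and without those 2 libraries 0.96 (adjusted p = 0.0918). With the macrophage covariate it was 0.27 and with the endothelial and stromal covariate −0.37, the opposite direction. The smooth muscle genes Acta2 and Myh11 were also highest in TG replicate 1, at 163 and 399 CPM. Whether acinar, vascular or blood cells account for P2rx1 was not tested.

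**Figure D3:**
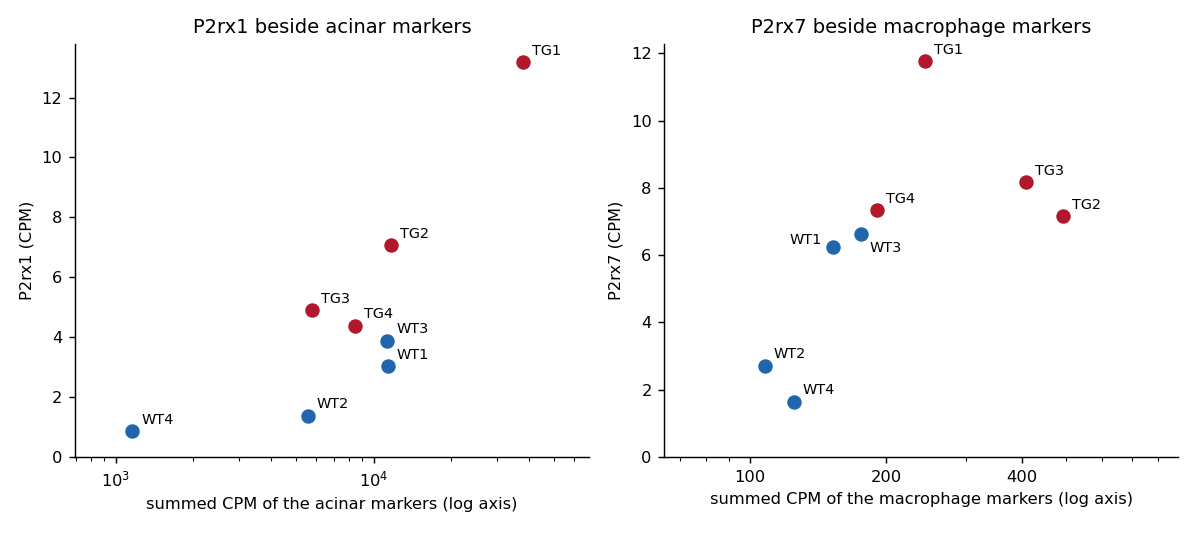
P2rx1 level (CPM) against the summed level of 8 acinar markers (left) and P2rx7 level (CPM) against that of 12 macrophage markers (right), 1 labelled point per library, x axes on log scales. TG replicate 1 is highest for P2rx1, P2rx7 and acinar markers, and WT replicate 4 is lowest for P2rx1, P2rx7 and acinar markers.

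P2rx5 was barely detected, with 0 to 21 counts in TG and 1 to 15 counts in WT, and was not tested. Its highest value was 1.13 CPM in TG replicate 1. The TG library with 0 counts allows a level of up to 0.171 CPM.

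Among the G protein-coupled members, P2ry1 and P2ry6 fell. The summed level of the 8 beta-cell markers was also lower, at 49807 to 63808 CPM in TG and 102264 to 122861 CPM in WT, and its part in these falls was not tested. P2ry1 (ENSMUSG00000027765) encodes the ADP receptor, coupled to Gq, that raises calcium in beta cells and platelets, and was the most abundant P2 transcript per kilobase in WT. Its levels were 126, 143, 134 and 188 CPM in WT replicates 1 to 4 and 79.1, 94.2, 77.7 and 55.4 CPM in TG replicates 1 to 4. All TG libraries were below all WT libraries. The means were 76.6 ± 16 CPM in TG and 148 ± 27.4 CPM in WT (n = 4 each), a 1.93-fold fall with a log2 fold change of −0.95 (SE 0.16, edgeR adjusted p = 0.00189). It was called with any library left out, from −1.06 to −0.82. With the endothelial and stromal covariate it was −0.67 (adjusted p = 0.444) and with the macrophage covariate −1.12 (adjusted p = 0.3).

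P2ry1 shares 992 exonic bases with the antisense gene Gm37035, which fell by 1.79 (SE 0.34, adjusted p = 0.00163) from 4.0 ± 0.838 CPM to 1.1 ± 0.45 CPM. Reads of these 2 genes over the shared bases cannot be told apart either. The flanking gene Mbnl1 measured 248 CPM in TG and 232 CPM in WT and was not called (log2 fold change 0.10, SE 0.077).

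P2ry6 (ENSMUSG00000048779) encodes the UDP receptor, also coupled to Gq and known from beta cells and macrophages. Its levels were 23.2, 24.5, 26.9 and 25.5 CPM in WT replicates 1 to 4 and 8.48, 6.67, 10.6 and 13.9 CPM in TG replicates 1 to 4. The WT libraries lay close together and above every TG library. The fall was 2.53-fold, from 25.1 ± 1.58 CPM to 9.91 ± 3.11 CPM (n = 4 each; fitted log2 change −1.34, SE 0.18, adjusted p = 0.000144). With single libraries left out it ran from −1.58 to −1.19 and was called each time, and with the endothelial and stromal covariate it was −1.40 (adjusted p = 0.045). It was lost with the macrophage covariate (−0.98, adjusted p = 0.278). P2ry6 fell while macrophage markers rose, and the part of macrophages in its level was not tested.

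P2ry2, the ATP and UTP receptor of epithelia and vessels, lies beside P2ry6 in the genome and went the other way in its values. It measured 3.13, 1.96, 2.38 and 2.39 CPM in TG and 0.483, 0.415, 1.90 and 1.77 CPM in WT replicates 1 to 4. The lowest TG value was just above the highest WT value, and WT fell into a low and a high pair. The log2 fold change of 1.12 (SE 0.46) was not called (adjusted p = 0.103), and it was −0.028 with the endothelial and stromal covariate. It passed with limma-voom (adjusted p = 0.0359) and without WT replicate 3 (1.5, adjusted p = 0.0413).

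P2ry14 (ENSMUSG00000036381) encodes the Gi-coupled receptor for UDP-glucose. Its levels were 9.02, 9.42, 8.83 and 7.46 CPM in TG replicates 1 to 4 and 4.01, 4.88, 2.68 and 6.05 CPM in WT replicates 1 to 4. TG exceeded WT in every library. The rise was 1.97-fold, from 4.41 ± 1.42 CPM to 8.68 ± 0.85 CPM (n = 4 each; fitted log2 change 0.99, SE 0.23, adjusted p = 0.0072). It was called with each library left out in turn (0.80 to 1.16) and with the endothelial and stromal covariate (2.0, adjusted p = 0.0314), and was lost without both TG libraries high in Lyz2 (0.86, adjusted p = 0.101) and with the macrophage covariate (1.57, adjusted p = 0.239). P2ry14 lies on the opposite strand within Med12l, with which it shares no exonic base, and Med12l fell by 0.63 (SE 0.11, adjusted p = 0.000844).

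**Figure D4:**
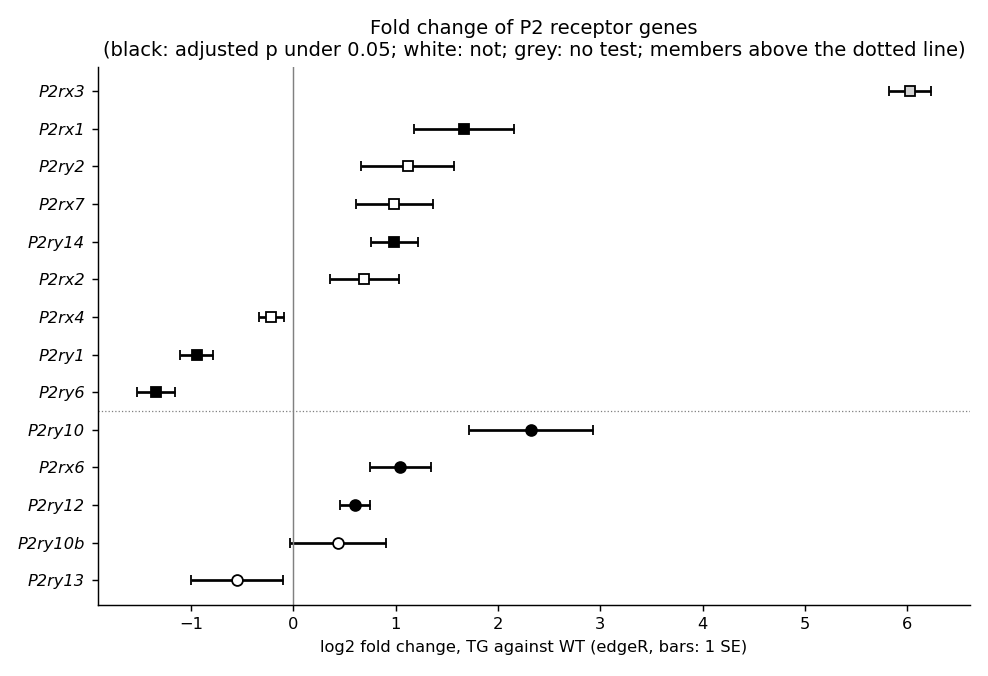
Log2 fold change of TG against WT (x axis, with 1 SE) for the 9 members and the 5 other P2 receptor genes with enough counts. P2rx3, drawn in grey because it was chosen for this rise, stands at 6.02. The others lie between −1.34 for P2ry6 and 2.32 for P2ry10, which is counted by its symbol only.

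The promoters of P2ry1 and P2rx4, the leading P2Y and P2X genes of WT islets, are shown because one fell and the other did not pass the test. Each runs from 250 bases before to 50 bases after the annotated start, from RefSeq on build GRCm38.p6, while the counts were made on mm39. Capitals mark TGACG, the half-site of the cyclic AMP response element, on either strand. P2ry1 lies at chr3:61002535-61002834 on the plus strand and P2rx4 at chr5:122707294-122707593 on the plus strand.
P2ry1: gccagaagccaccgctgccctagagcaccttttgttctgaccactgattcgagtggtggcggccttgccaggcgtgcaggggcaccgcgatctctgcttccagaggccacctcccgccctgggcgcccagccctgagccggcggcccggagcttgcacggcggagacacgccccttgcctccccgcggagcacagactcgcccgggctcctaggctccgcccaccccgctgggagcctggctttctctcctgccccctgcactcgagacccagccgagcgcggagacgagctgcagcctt
P2rx4: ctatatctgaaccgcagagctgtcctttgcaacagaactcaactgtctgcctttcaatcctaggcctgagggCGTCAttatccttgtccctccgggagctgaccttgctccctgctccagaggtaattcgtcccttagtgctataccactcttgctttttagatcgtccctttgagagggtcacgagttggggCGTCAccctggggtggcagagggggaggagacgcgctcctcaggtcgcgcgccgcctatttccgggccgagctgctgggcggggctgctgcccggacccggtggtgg

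P2rx4 held 2 half-sites and P2ry1 none. The sequences matched 6 of the 10 members, with 11 annotated starts, and P2rx2, P2rx3, P2rx5 and P2ry6 had no entry. TGACG was found in 1 of the 11 windows, the one of P2rx4, and in 20.8% of all 32851 promoters. The ATF4 composite motif TGATGNAA and the full element TGACGTCA, which contains TGACG, were in none of the 11, and in 3.97% and 1.79% of all promoters, both strands searched. These matches describe letters in a short window and say nothing of binding.

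Of the 6 remaining genes with P2 receptor symbols, 3 rose and 0 fell among 5 tested, against 12.1% higher and 8.06% lower over all genes tested. None was lower at an unadjusted p under 0.05 or by DESeq2 or limma-voom either. P2ry12, the Gi-coupled ADP receptor of platelets and microglia, measured 14.2 ± 0.644 CPM in TG and 9.31 ± 1.29 CPM in WT (n = 4 each; fitted log2 change 0.60, SE 0.15, edgeR adjusted p = 0.00968). P2rx6, a subunit that forms few channels alone, rose by 1.05 (SE 0.30, adjusted p = 0.0217) from 1.39 to 2.86 CPM. P2ry10, a receptor of lymphocytes counted here by its symbol, rose by 2.32 (SE 0.60, adjusted p = 0.0131) and did not exceed 2.7 CPM. The summed level of the lymphocyte markers was 3.59 to 7.83 CPM in TG and 1.96 to 5.69 CPM in WT. The part of lymphocytes in the P2ry10 result was not tested. P2ry13 (−0.55, SE 0.45) and P2ry10b (0.44, SE 0.47) did not pass the test, and P2ry4 was too low to be tested, at 0.0889 to 0.918 CPM. With either the macrophage or the endothelial and stromal covariate none of the 3 was called, and without both TG libraries high in Lyz2 P2ry10 alone was. Without the 2 acinar extremes none was called (P2ry12 adjusted p = 0.057, P2ry10 adjusted p = 0.0719, P2rx6 adjusted p = 0.0636). The P2rx6 call was also lost without TG replicate 1 (0.99), TG replicate 3 (0.93), WT replicate 2 (1.02) or WT replicate 3 (0.92), and with no filter on low counts (adjusted p = 0.0638).

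ATP outside cells is broken down stepwise to adenosine. The list for this breakdown also held Ada, the gene of adenosine deaminase, which acts on adenosine itself. Of its 10 tested genes 6 rose in TG, Ada among them, against 12.1% of all genes tested (8.06% were lower). Of 11 listed, Entpd8 was too low to be tested, 4 did not pass the test (Entpd3, Enpp2, Enpp3 and Acpp) and 0 fell by edgeR, with a median log2 fold change of 0.99. At an unadjusted p under 0.05, 8 were higher and 0 lower, and DESeq2 and limma-voom each called 7 higher and 0 lower. Entpd1, the vascular and immune enzyme CD39 that removes phosphates from ATP and ADP, measured 64.0 ± 9.70 CPM against 22.4 ± 9.61 CPM (n = 4 each; fitted log2 change 1.51, SE 0.28, adjusted p = 0.00785). Nt5e, the enzyme CD73 that makes adenosine from AMP, rose by 1.45 (SE 0.27, adjusted p = 0.00152), Enpp1 by 0.95 (SE 0.19, adjusted p = 0.00257) and the alkaline phosphatase gene Alpl by 1.24 (SE 0.28, adjusted p = 0.00591). Entpd3, the most abundant ectonucleotidase gene of the ENTPD family here in CPM, stood at 141 ± 22.3 CPM against 139 ± 11.8 CPM and was not called (0.03, SE 0.11). With the endothelial and stromal covariate 1 of the 10 was called, with the macrophage covariate 0, and without both TG libraries high in Lyz2 2 were.

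Of 4 adenosine receptor genes, 1 fell and 1 rose, where 8.06% of all genes tested were called lower and 12.1% higher. Adora1, the Gi-coupled receptor that lowers cyclic AMP, went from 15.2 ± 2.78 CPM to 9.79 ± 0.686 CPM (fitted log2 change −0.64, SE 0.16, adjusted p = 0.0104). Adora2b, which raises cyclic AMP, went from 2.65 ± 0.451 CPM to 4.71 ± 1.14 CPM (0.83, SE 0.26, adjusted p = 0.0313). Both calls were lost without both TG libraries high in Lyz2 (adjusted p = 0.0698 and adjusted p = 0.377), with the macrophage covariate (−0.76, adjusted p = 0.42 and 0.29, adjusted p = 0.908) and with the endothelial and stromal covariate (adjusted p = 0.262 and adjusted p = 0.722). The Adora2b call was also lost without TG replicate 2 (0.83), TG replicate 3 (0.64), TG replicate 4 (0.81), WT replicate 2 (0.72) or WT replicate 4 (0.81).

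Genes for the release of ATP and the transport of nucleosides, listed together with the adenosine kinase gene Adk, gave 1 call. Of 12 listed, 10 were tested, and by edgeR 0 rose and 1 fell, with a median log2 fold change of 0.01. The shares over all genes tested were 12.1% higher and 8.06% lower. At an unadjusted p under 0.05 by edgeR, 1 was higher, the nucleoside carrier gene Slc28a3, and 2 were lower, Slc28a2 and Adk. Adk had a log2 fold change of −0.21 (SE 0.086, adjusted p = 0.102). DESeq2 called Slc28a3 higher, while limma-voom called 0 higher. With the replicate block, without TG replicate 2 or without WT replicate 3, edgeR called 1 gene of the list higher. The vesicular nucleotide transporter gene Slc17a9, which loads ATP into granules, measured 10.7 ± 2.07 CPM in TG and 12.3 ± 2.35 CPM in WT (−0.21, SE 0.19, adjusted p = 0.498), and the ATP-releasing channel gene Panx1 stood at 3.45 and 3.64 CPM. Slc28a2, a sodium-coupled nucleoside carrier, was called lower (−0.90, SE 0.25, adjusted p = 0.0209), a call lost with 4 of 8 libraries left out singly (TG replicates 1 and 2, WT replicates 3 and 4; −0.77, −0.85, −0.81 and −0.76). It was also lost with the macrophage (−1.35, adjusted p = 0.328), endothelial and stromal (−1.15, adjusted p = 0.351) and acinar covariates (−0.72, adjusted p = 0.0679) and without the acinar extremes (−0.65, adjusted p = 0.142).

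Of 11 genes that carry the Gq signal of P2RY1, P2RY2 and P2RY6, 3 rose and 0 fell by edgeR, with a median log2 fold change of 0.32. By the same test 12.1% of all genes tested were higher and 8.06% lower. Itpr3, another calcium release channel gene, was lower at an unadjusted p under 0.05 (edgeR −0.35, SE 0.12, adjusted p = 0.0598). It was called lower by DESeq2 and by edgeR with median-of-ratios or upper-quartile scaling, no filter or the replicate block, and without TG replicate 4, WT replicate 4 or the acinar extremes, while limma-voom called 0 lower. Gnaq and Gna11, the main Gq-class alpha subunits, were close in both groups at 78.6 against 78.1 CPM and 95.1 against 96.7 CPM. Gna14, a related subunit, rose from 3.24 ± 1.24 CPM to 11.1 ± 1.56 CPM (fitted log2 change 1.76, SE 0.24, adjusted p = 0.000126). The calcium release channel gene Itpr2 rose by 0.71 (SE 0.099, adjusted p = 0.00016) and the phospholipase gene Plcb1 by 0.37 (SE 0.094, adjusted p = 0.0112). Plcb1 was not called without WT replicate 2 (0.33, adjusted p = 0.0546), without both TG libraries high in Lyz2 (adjusted p = 0.0529) or without the acinar extremes (adjusted p = 0.0516). None of the 3 was called with either the macrophage or the endothelial and stromal covariate.

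**Figure D5:**
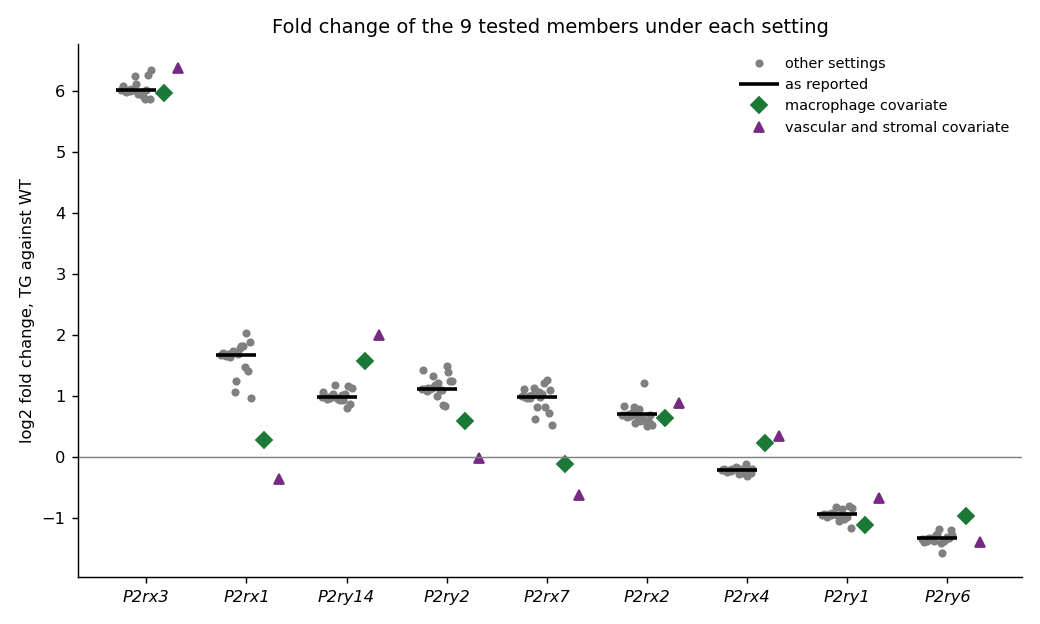
Log2 fold change of TG against WT (y axis) of the 9 tested members under the reported fit (black line), the macrophage covariate (green), the endothelial and stromal covariate (purple, named vascular and stromal) and 19 other settings (grey). P2rx3 stays between 5.87 and 6.38, while P2rx1 runs from −0.37 to 2.04 and P2rx7 from −0.63 to 1.26.

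Both covariates separated the groups by themselves. The mean log2 CPM of the macrophage markers was 3.20 to 4.07 in TG and 1.96 to 2.92 in WT, and that of the endothelial and stromal markers 7.08 to 7.49 and 5.36 to 6.66. With the macrophage covariate 1.23% of all genes tested were called (0.536% higher, 0.697% lower) and with the other 1.92% (0.761% higher, 1.16% lower), instead of 20.1%. Covariate and group cannot be told apart, and a call lost under either does not show that the gene did not differ. The share of all genes called also moved with the other settings named above. It was 26.3% with DESeq2, 20.7% with median-of-ratios and 21.8% with upper-quartile scaling, 21% with limma-voom (12.5% higher), 8.89% with no filter, 22.8% with the replicate number as a block and 15.6% with the acinar covariate. It was 10% (5.62% higher) without both TG libraries high in Lyz2 and 13% (7.41% higher) without the acinar extremes. Without TG replicates 1 to 4 in turn it was 14.5%, 16.7%, 13.8% and 20.3%, of which 9.13%, 9.92%, 7.9% and 10.5% of all genes were higher. Without WT replicates 1 to 4 in turn it was 15.6%, 13.2%, 19% and 15.8%, and 9.46%, 8.01%, 12.1% and 9.22% were higher.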

How the data were processed

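The authors deposited raw read counts per Ensembl mouse gene, 1 table per library, with no normalization. STAR 2.7.10a, HTSeq 0.11.3 and the build mm39 are named per the submitters' processing notes. Reads outside any gene or ambiguous between genes (together 29.1% to 35.3% of each table's total) stayed out of library sizes, as did the other rows for unassigned reads. Symbols and exon lengths came from GENCODE M21 on an earlier build (52081 of 55414 identifiers matched), so no gene coordinates are given. Acp3 was matched through its older symbol.

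Genes were filtered with filterByExpr (minimum count 10), scaled by TMM and tested with edgeR 4.0.16 (robust quasi-likelihood, two-sided, group only) in R 4.3.3, with Benjamini-Hochberg adjustment over 20509 genes. The step was tested on simulated data, in 5 runs. It recovered 53.7% of 2-fold and 77.2% of 4-fold changes, and 50 of 703 calls (7.11%) were false. A gene that did not pass the test can therefore still differ. The simulation changed a far smaller share of genes than the 20.1% called here, so its rates need not hold for this comparison. Members and gene lists were chosen with earlier results of these data known. Named genes are all P2 receptors, up to 4 genes of each pathway list with the lowest adjusted p, and the 5 genes closest to P2rx3. Entpd3, Ada, Slc17a9, Panx1, Adk, Gnaq, Gna11, Slc28a3 and Itpr3, the neighbouring genes and single marker genes were added after their values were seen. Alternatives were DESeq2 1.42.0, limma-voom 3.58.1, other scalings and filters, a replicate block, covariates and left-out libraries. The acinar covariate and the pairs left out were added after seeing the data. No pair of libraries agreed within sampling noise (chi-square per gene at least 17.3).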

Additional observations from a re-analysis of the deposited data

Results flagged for a closer look

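The P2rx2 level of WT replicate 1, 4.73 CPM, stood far from the other 3 WT libraries (1.53 to 1.93 CPM), with a gap to its nearest neighbour above Dixon's critical share of the group's range. Of the 30 groups of 4 examined this was 1, and chance alone marks about 1 in 20.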

How the results depend on the processing

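The count of called members other than P2rx3 was 2 higher and 2 lower. It was 4 higher with limma-voom, 0 and 0 with edgeR and the macrophage covariate (3 at an unadjusted p under 0.05; without the covariate DESeq2 called 5 and limma-voom 6), and 1 and 1 (2 in all) with the vascular and stromal covariate. Without both TG libraries high in Lyz2 it was 0 higher and 2 in all, and 1 higher without the acinar extremes. With single libraries left out, 1 to 4 were called higher (4 without WT replicate 3, 1 without TG replicate 1, TG replicate 2, WT replicate 2 or WT replicate 4). Directions turned for P2rx4 (0.22 with the macrophage and 0.35 with the vascular and stromal covariate), P2rx7 (−0.12 and −0.63) and P2ry10b (−0.29 and −0.28), and with the vascular and stromal covariate for P2rx1 (−0.37) and P2ry2 (−0.028). The cause was not tested. With the replicate number as a block, which the labels do not say pairs samples (correlations of same-numbered libraries −0.05 to 0.06), 5 members were called, P2rx7 (1.13) in addition, and 4673 genes in all against 4129. Over all genes, 253 were called with the macrophage and 393 with the vascular and stromal covariate, and 2254 without both TG libraries high in Lyz2. Depth limits P2rx5 and P2ry4, which held 0 to 21 counts.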
